A study of Mus musculus with 5 samples.

Results

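Foxp1, a forkhead transcription factor gene on mouse chromosome 6, was read by 8 of the 45101 probe sets of an Affymetrix mouse expression array, and its probe sets did not give 1 common answer. All probe sets to which the platform annotation gives the single symbol Foxp1 were taken, whatever their values. The gene itself was picked from the comparison described here, in which 1 of its probe sets stood near the top, so its differences between the crosses are given as a description with no test. Total RNA of whole blood, taken by cardiac puncture from adult female mice, was hybridised 1 sample per array. The groups were 3 samples of the (DBA/2J x FVB/NJ)F1 cross (DBAxFVB F1) and 2 of the (AKR/J x FVB/NJ)F1 cross (AKRxFVB F1), and both crosses share the FVB/NJ parent. The mice were killed by cervical dislocation under the anaesthetic Avertin. Nothing in the labels ties each sample to a mouse of its own, so the errors and p-values below cover the spread between samples only, and part of it may be technical.

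The FOXP proteins are forkhead factors that pair with each other through a leucine zipper and mostly repress transcription, together with CtBP and the NuRD histone deacetylase complex. In mice Foxp1 is needed early in B cell development and keeps naive T cells quiescent, and it is made in many blood cell types. In whole blood, fewer cells of a type and less RNA per cell cannot be told apart.

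RefSeq lists 41 Foxp1 transcripts, 4 of them curated, and the promoter table used here holds 3 start windows of the gene, each with 250 bases before and 50 after the start. They are shown because probe sets of such a gene can read different transcripts. The annotation used here does not place the 8 probe sets on transcripts, so none is assigned to a start. The windows lie on the minus strand of GRCm38.p6, at chr6:99520944-99521243 for start 1, chr6:99266466-99266765 for start 2 and chr6:99028249-99028548 for start 3. Capitals mark the forkhead core motif TAAACA on either strand (TGTTTA on the other), chosen after the sequences had been read.
Foxp1 start 1: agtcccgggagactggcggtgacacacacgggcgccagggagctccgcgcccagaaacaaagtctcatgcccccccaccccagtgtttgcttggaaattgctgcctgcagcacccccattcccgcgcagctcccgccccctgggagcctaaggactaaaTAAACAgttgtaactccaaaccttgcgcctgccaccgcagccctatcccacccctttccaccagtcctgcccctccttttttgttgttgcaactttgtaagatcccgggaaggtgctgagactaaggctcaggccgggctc
Foxp1 start 2: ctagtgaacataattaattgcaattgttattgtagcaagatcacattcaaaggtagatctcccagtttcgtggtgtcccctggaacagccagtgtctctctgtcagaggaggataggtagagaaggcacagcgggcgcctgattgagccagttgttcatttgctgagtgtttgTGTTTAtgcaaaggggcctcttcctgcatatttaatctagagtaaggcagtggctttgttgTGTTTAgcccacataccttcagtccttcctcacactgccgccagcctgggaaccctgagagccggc
Foxp1 start 3: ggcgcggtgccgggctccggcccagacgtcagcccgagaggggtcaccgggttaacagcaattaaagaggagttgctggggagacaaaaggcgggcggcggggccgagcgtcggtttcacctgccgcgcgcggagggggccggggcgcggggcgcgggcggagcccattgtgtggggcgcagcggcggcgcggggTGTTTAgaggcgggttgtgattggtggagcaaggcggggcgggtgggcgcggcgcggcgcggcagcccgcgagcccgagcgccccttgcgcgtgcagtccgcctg

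Start 2 lies 254 kb and start 3 lies 493 kb downstream of start 1. The windows differ in composition. Start 3 has a GC content of 75.3% and 44 CpG dinucleotides, start 1 has 60.3% and 13, and start 2 has 48.7% and 5, against medians of 52.7% and 7 over all 32851 windows in the table. The motif occurs once in windows 1 and 3 and 2 times in window 2. Of all windows, 13.4% hold it. A match describes letters in these windows and is not a measured binding site.

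The values are log2 expression as the authors deposited them, with medians over non-control probe sets of 2.53, 2.53 and 2.54 on the DBAxFVB F1 arrays and 2.486 and 2.495 on the AKRxFVB F1 arrays. DBAxFVB F1 array 3 stood apart from the others. The median of its 18 spiked hybridisation controls was 7.99, against 10.01 to 10.12 on the other arrays, and its ribosomal RNA probe sets averaged 6.53, against 9.45 to 10.40. Its 3' minus 5' difference for Actb, a measure of RNA length, was 1.32, with 0.82 and 0.68 on the other DBAxFVB F1 arrays and 1.22 and 1.03 on the AKRxFVB F1 arrays. All 5 tested housekeeping genes were lower in DBAxFVB F1 (43.2% of all tested probe sets were), with a median difference of -0.80. Without array 3 all 5 were still lower, with a median of -0.46. The share of all tested probe sets that were lower depended on level. It was 37.7% for those with a mean of 2.5 to 3 and 61.5% for 5 to 6. For means of 6 to 8 it was 80.3%, and for 8 to 15 it was 91.7%. The part of such a shift in the Foxp1 values was not tested. As a level for transcripts that are not made, 12 of 13 probe sets of Y-linked genes read between 1.49 and 2.56 in these females. The remaining one, for Sry, is of a class open to cross-hybridisation and read 3.50 to 3.82. The labelled tissue was checked by the red cell gene Alas2, with means of 13.54 in DBAxFVB F1 and 13.52 in AKRxFVB F1, and the platelet gene Ppbp, with means of 10.55 in DBAxFVB F1 and 11.07 in AKRxFVB F1.

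All 8 Foxp1 probe sets had a mean over the 5 arrays above the median used as a filter, 2.51, with means from 2.60 to 5.54. In 1 of them, 1421142_s_at, the DBAxFVB F1 mean of 2.41 lay below that filter, so it passed through the AKRxFVB F1 arrays. On every array, 5 of the 8 lay above the Y-linked range, and 4 of the 40 single Foxp1 values lay at or below its upper end. A level depends on how well a probe set hybridises, so the levels of different probe sets do not rank transcripts.

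Of the 8 probe sets, 7 were lower in DBAxFVB F1 than in AKRxFVB F1 blood on average, where 43.2% of the 22519 tested probe sets were. At the levels of the Foxp1 probe sets that share ran from 37.7% (means of 2.5 to 3) to 61.5% (means of 5 to 6). For 6 of the 8, every DBAxFVB F1 array lay below every AKRxFVB F1 array (percent of tested probe sets: 12.6), and 1 was higher with no overlap (percent of tested probe sets: 16.4). A fold of 2 or more lower was seen in 2 of the 8, and in 2.35% of tested probe sets. The median Foxp1 difference, DBAxFVB F1 minus AKRxFVB F1, was -0.63 on the log2 scale, against 0.04 over all tested probe sets, and the differences spread from -2.13 to 0.14. As the gene was picked from this contrast, nothing follows from these shares about Foxp1.

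**Figure D1:**
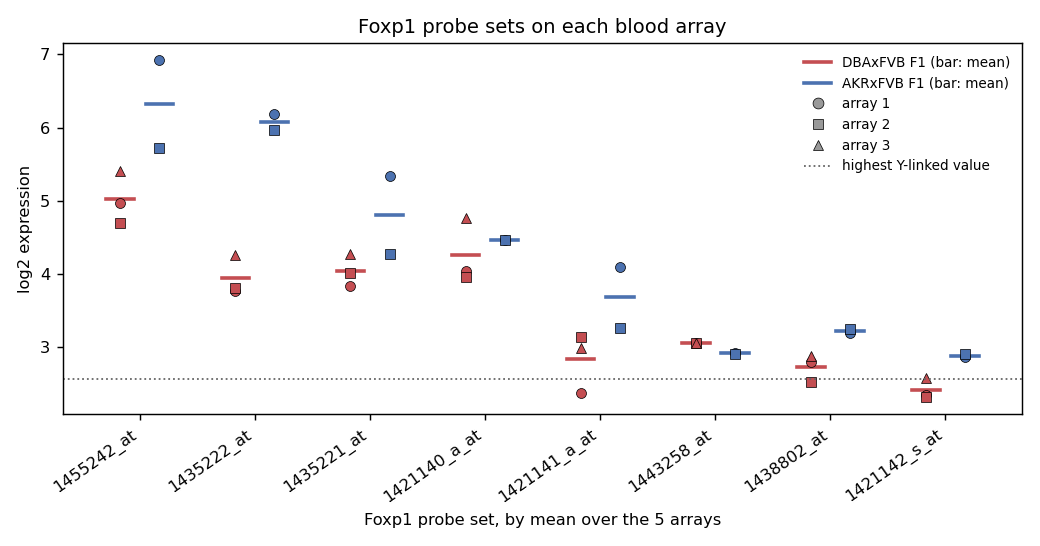
Log2 expression of the 8 Foxp1 probe sets on each array, in order of their mean, with DBAxFVB F1 arrays in red left of AKRxFVB F1 arrays in blue, symbols for the replicate number, bars for group means and a dotted line at the highest value of the Y-linked probe sets (2.56). In 1435222_at the groups are 1.71 apart, in 1435221_at they nearly touch, and in 1421140_a_at they overlap.

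The probe sets 1435221_at, 1435222_at and 1455242_at were annotated with the same GenBank sequence, so they share a source, and they held the 2 largest differences. Probe set 1435222_at read 3.76, 3.80 and 4.25 on the DBAxFVB F1 arrays and 6.18 and 5.96 on the AKRxFVB F1 arrays. The means were 3.94 ± 0.27 in DBAxFVB F1 (SD, n = 3) and 6.07 ± 0.16 in AKRxFVB F1 (SD, n = 2), and the difference was -2.13 ± 0.25 (moderated SE), a level 4.38-fold higher in AKRxFVB F1. The 2 groups stood clearly apart, with a gap of 1.71 between the highest DBAxFVB F1 and the lowest AKRxFVB F1 value. This difference was the fourth lowest (rank 4) of 22519 tested probe sets and is the value for which the gene was picked. As a position within its array, which no monotonic rescaling of a whole array changes, it stood at percentiles 85.6, 86.4 and 90.5 in DBAxFVB F1 and 97.1 and 96.5 in AKRxFVB F1.

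Probe set 1455242_at, the one with the highest mean, read 4.97, 4.69 and 5.40 on the DBAxFVB F1 arrays and 6.92 and 5.72 on the AKRxFVB F1 arrays, a difference of -1.30 ± 0.40 (SE). AKRxFVB F1 array 1 was 1.20 above array 2, which lay only 0.32 above the highest DBAxFVB F1 array. Without AKRxFVB F1 array 1 the difference was -0.70, and without array 2 it was -1.90. Probe set 1435221_at read 3.83, 4.01 and 4.27 in DBAxFVB F1 and 5.33 and 4.27 in AKRxFVB F1, a difference of -0.77 ± 0.33. Here too AKRxFVB F1 array 1 alone was high, by 1.06 over array 2, and the groups were separated by only 0.0067. The difference was -0.24 without AKRxFVB F1 array 1 and -1.30 without array 2.

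Of the 28 pairs that 8 probe sets form, 6 shared a GenBank sequence, 3 of them among these probe sets. The difference between the crosses of 1435221_at and 1435222_at was 1.37 apart, that of 1435222_at and 1455242_at 0.83 and that of 1435221_at and 1455242_at 0.53. The 3 pairs of the other shared sequence, described next, were 0.64, 0.37 and 0.26 apart. Across the table, 2302 pairs of tested probe sets shared both a gene symbol and a GenBank sequence, with a median gap of 0.26 and a 90th percentile of 0.72. The widest Foxp1 gap was singled out after its value was seen and holds the probe set for which the gene was picked, so these values are a description only. The cause of the gaps was not tested.

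The probe sets 1421140_a_at, 1421141_a_at and 1421142_s_at also had a common GenBank sequence, and their differences lay between -0.85 and -0.21. Probe set 1421140_a_at, of a class that recognises several transcripts of a gene, read 4.04, 3.95 and 4.76 in DBAxFVB F1 and 4.46 and 4.47 in AKRxFVB F1. The AKRxFVB F1 arrays lay inside the DBAxFVB F1 range, with DBAxFVB F1 array 3 highest of all, and the difference was -0.21 ± 0.28 (SE). Without that array the difference was -0.47 and the groups did not overlap. Probe set 1421141_a_at read 2.37, 3.13 and 2.99 in DBAxFVB F1 and 4.09 and 3.26 in AKRxFVB F1, a difference of -0.85 ± 0.31. Its value on DBAxFVB F1 array 1 lay in the Y-linked range, and without that array the difference was -0.62. Array 1 of AKRxFVB F1 was again 0.83 above array 2, and the difference was -0.43 without array 1 and -1.26 without array 2. The dimmest probe set, 1421142_s_at, read 2.34, 2.31 and 2.58 in DBAxFVB F1 and 2.86 and 2.90 in AKRxFVB F1, a difference of -0.47 ± 0.15. Its class can share probes with other transcripts, and 2 of its DBAxFVB F1 values lay in the Y-linked range.

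The last 2 probe sets each came from a sequence of their own and were dim. Probe set 1438802_at read 2.79, 2.52 and 2.87 in DBAxFVB F1 and 3.19 and 3.25 in AKRxFVB F1, a difference of -0.49 ± 0.16 (SE). Probe set 1443258_at had the opposite sign and read 3.06, 3.05 and 3.05 in DBAxFVB F1 and 2.92 and 2.90 in AKRxFVB F1, a difference of 0.14 ± 0.14. The groups of both were separate, by 0.32 in 1438802_at and 0.13 in 1443258_at, and DBAxFVB F1 array 2 of 1438802_at lay in the Y-linked range. For probe sets with a mean of 2.5 to 3, the median difference over the table was 0.07.

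**Figure D2:**
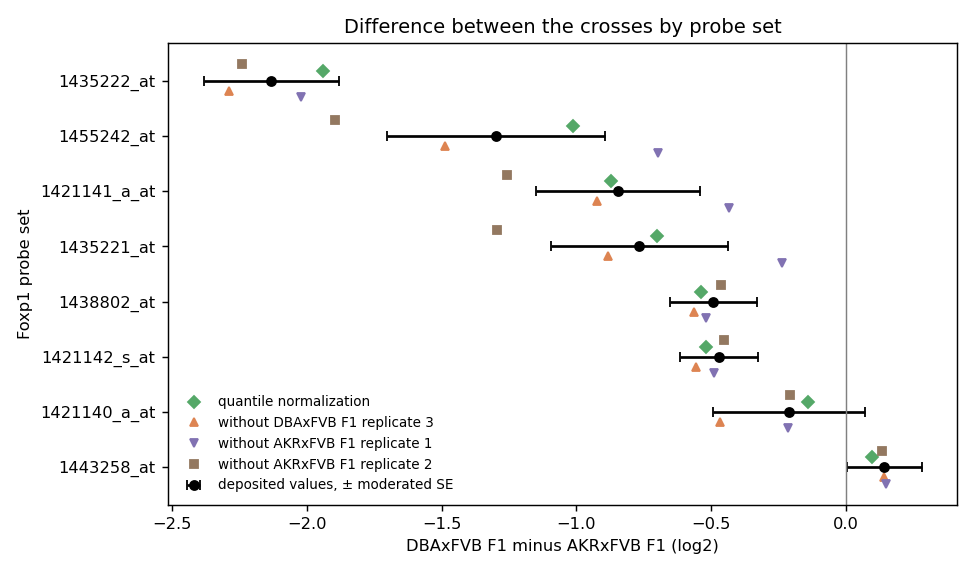
Difference between the crosses (DBAxFVB F1 minus AKRxFVB F1, log2) for each Foxp1 probe set, with black points and moderated standard errors for the deposited values and coloured symbols for quantile normalization and for arrays left out. In 1435222_at all symbols lie between -2.29 and -1.94, while in 1435221_at leaving out 1 AKRxFVB F1 array or the other gives -0.24 or -1.30.

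The probe sets fell into profiles that differ inside the AKRxFVB F1 cross. In 3 of them, 1421141_a_at, 1435221_at and 1455242_at, AKRxFVB F1 array 1 was 0.83 to 1.20 above array 2, while in the other five the 2 arrays were between -0.06 and 0.22 apart. Profiles were compared after subtracting each probe set's mean, by the root mean square distance over the 5 arrays. The closest Foxp1 pair was 1421142_s_at and 1438802_at, at 0.08, and the next was 1421141_a_at and 1435221_at, at 0.21. Neither of these pairs has a common GenBank sequence. The pair 1435221_at and 1435222_at, which has one, was 0.72 apart.

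The Foxp1 profiles were set beside those of blood cell markers. The B cell list gave 13 tested genes, 12 lower and 1 higher, where 43.2% of all tested probe sets were lower. At an unadjusted p below 0.05, 5 were lower, where 6.79% of all tested probe sets were, and limma, a linear model with moderated variances, called 0 at an adjusted p below 0.05. The median difference of the list was -0.63, with 12 genes lower. Leaving out AKRxFVB F1 array 1 made it -0.36 with 9 lower, leaving out array 2 of that cross made it -1.17 with 13 lower, and leaving out DBAxFVB F1 array 3 made it -0.94 with 11 lower. No B cell gene read within the Y-linked range on all arrays, though the factor Ebf1 did on the 3 DBAxFVB F1 arrays and the receptor Cr2 on array 2 of that cross. Their summed level on the linear scale was 179 to 306 in DBAxFVB F1 and 340 to 741 in AKRxFVB F1. With each gene's own mean subtracted, the median of the list was -0.49, -0.53 and 0.01 on the DBAxFVB F1 arrays and 0.92 and -0.06 on the AKRxFVB F1 arrays. Probe set 1435221_at read -0.51, -0.33 and -0.08 in DBAxFVB F1 and 0.99 and -0.07 in AKRxFVB F1 on that scale, a distance of 0.10 from the B cell median. Of the 8 cell type lists, that of B cells was also the nearest for 1421141_a_at and 1455242_at, both at 0.28, and for 1435222_at, but at 0.71. Probe set 1435222_at stood at 1.17 on AKRxFVB F1 array 2, where the B cell median was -0.06. The part of B cell content in the Foxp1 differences was not tested.

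For 1421140_a_at, 1421142_s_at and 1438802_at the nearest list was that of monocyte markers, at 0.17, 0.12 and 0.17. The summed level of its 9 tested genes, of 12 listed, was 672 to 1326 in DBAxFVB F1 and 1266 to 1687 in AKRxFVB F1, and the groups overlapped. For 1443258_at it was cardiac and vessel markers, at 0.10, whose 6 tested genes summed to 62.7 to 82.6 in DBAxFVB F1 and 63.7 to 66.8 in AKRxFVB F1. Probe set 1443258_at was nearly flat, with values of -0.09 to 0.06 around its mean. The median difference of the cardiac and vessel list was -0.11, opposite in sign to its 0.14, and was 0.01 without AKRxFVB F1 array 2. The short distance therefore does not mean a shared direction. Of the 6 genes 4 were lower (43.2% of all tested probe sets were) and 2 higher, and limma called 0. At an unadjusted p below 0.05, 0 were lower and 2 higher, where 6.79% and 3.59% of all tested probe sets were. Those 2 were Actc1 at 0.75 and Myl2 at 0.78, and both AKRxFVB F1 values of Myl2 lay in the Y-linked range. T cell markers, with 13 tested genes, had a median difference of -0.23. They summed to 481 to 584 in DBAxFVB F1 and 564 to 627 in AKRxFVB F1, and the groups overlapped. The brightest of them, Zap70, weighed most in these sums and was flat, with means of 7.90 in DBAxFVB F1 and 7.89 in AKRxFVB F1. Of the T cell genes 9 were lower and 4 higher, and limma called 0. At an unadjusted p below 0.05, 4 were lower, where 6.79% of all tested probe sets were, and 0 higher. Those with the smallest p were Cd2 at -1.13, Cd3d at -1.38 and Thy1 at -0.71. With an array left out the T cell median ran from -0.36 to -0.10. The lists of platelet, NK and cytotoxic, neutrophil and erythroid markers had median differences of -0.53, -0.31, 0.07 and 0.02 and were nearest to no Foxp1 probe set. The platelet median was 0.05 without DBAxFVB F1 array 3 and 0.10 without AKRxFVB F1 array 2, so its sign rested on those arrays, and each of the other 3 medians changed sign with at least 1 single array left out.

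**Figure D3:**
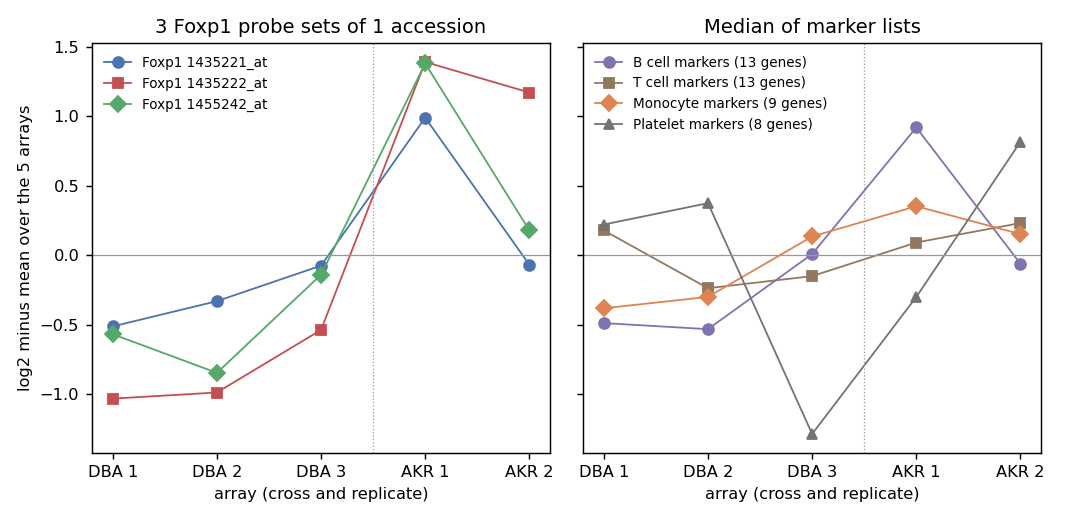
Log2 expression minus its mean over the 5 arrays, by array, for the 3 Foxp1 probe sets of 1 GenBank sequence (left) and for the median of 4 marker lists (right). AKRxFVB F1 array 1 is high in all 3 Foxp1 probe sets and in the B cell median (0.92), while on AKRxFVB F1 array 2 1435222_at stands at 1.17, 1455242_at at 0.18, 1435221_at at -0.07 and the B cell median at -0.06.

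Other genes had profiles close to those of Foxp1. Among 12420 genes with a tested probe set, the nearest to 1455242_at was Man1a, a Golgi mannosidase, at a distance of 0.03. Its means were 4.23 in DBAxFVB F1 and 5.56 in AKRxFVB F1. Next came the sorting nexin Snx2 at 0.07, the survival factor Mcl1 at 0.10, the nucleolar protein Npm1 at 0.12 and the fatty acid oxidation enzyme Hadh at 0.13. The profile of 1435222_at had no neighbour that close. The nearest gene was Vapa, which tethers the endoplasmic reticulum to other membranes, at 0.22, followed by the translation initiation factor Eif3e at 0.25, the splicing complex assembly factor Clns1a at 0.27, a probe set of the B cell antigen gene Ms4a1 at 0.27 and the ciliary BBSome subunit gene Bbip1 at 0.28. Those 5 genes had differences between -1.93 and -1.66, and in each AKRxFVB F1 array 1 exceeded array 2, by 0.40 to 0.88, against 0.22 for 1435222_at. Likeness over 5 arrays is a description of these arrays.

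The spread between the Foxp1 probe sets was set beside that of other genes measured many times. Of 136 genes with at least 5 tested probe sets, Foxp1 had the widest range of differences, 2.28, against a median range of 0.74, and among the 5 genes with at least 8 it was also first (median range 1.43). Its range was 2.43 without DBAxFVB F1 array 3. Leaving out DBAxFVB F1 array 1 or AKRxFVB F1 array 2 put it at rank 3, and leaving out either DBAxFVB F1 array 2 or AKRxFVB F1 array 1 at rank 2. The gene was picked for 1 end of this range, so the rank is a description.

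**Figure D4:**
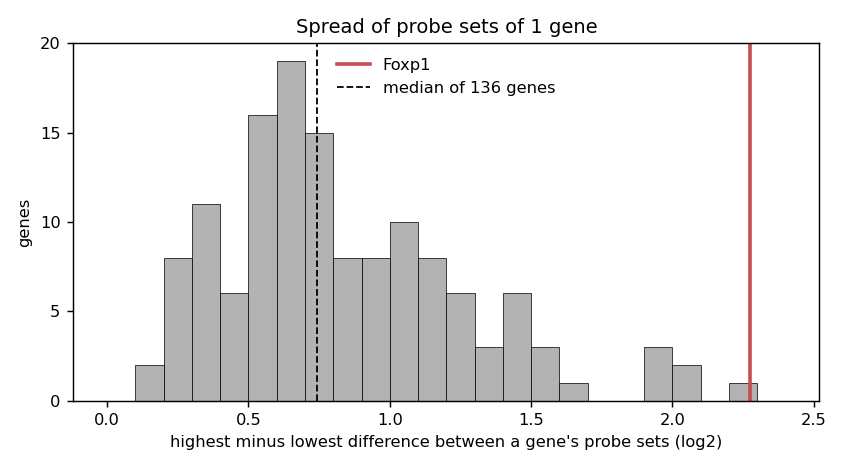
Histogram of the range of differences between the crosses (highest minus lowest, log2) over the tested probe sets of each of 136 genes with at least 5 of them, with a dashed line at the median (0.74) and a red line at Foxp1 (2.28). Foxp1 lies at the far right of the distribution.

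The other FOXP genes gave differences between -0.17 and 0.19. Of the 10 probe sets of Foxp2, Foxp3 and Foxp4, 5 were tested. None of the 10 was lower with no overlap, where 12.6% of all tested probe sets were. Foxp4, which is broadly expressed, read 5.54, 5.57 and 5.68 in DBAxFVB F1 and 5.44 and 5.37 in AKRxFVB F1 on its brightest probe set. It was higher in DBAxFVB F1 with no overlap, as were 16.4% of all tested probe sets, by a difference of 0.19 ± 0.24 (SE). Foxp3, which defines regulatory T cells, read 1.92 to 2.27 in DBAxFVB F1 and 2.00 to 2.05 in AKRxFVB F1, within the Y-linked range. The brightest probe set of Foxp2 had a mean of 2.87 in DBAxFVB F1 and 2.88 in AKRxFVB F1. The fit with limma over all 22519 tested probe sets called 0 of them at an adjusted p below 0.05 (percent called: 0.0) and therefore none in this family. At an unadjusted p below 0.05 it gave 2337, 1529 lower (6.79%) and 808 higher (3.59%) in DBAxFVB F1, so that 65.4% were lower. Median centring of the arrays made that share 77.0%, and cyclic loess made it 78.9%.

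Of the proteins with which FOXP factors repress, 14 of 16 listed genes were tested. In DBAxFVB F1, 12 were lower and 2 higher, with a median difference of -0.17, and limma called 0 (2 lower and 0 higher at an unadjusted p below 0.05). Over all tested probe sets, 43.2% were lower, and 6.79% were lower and 3.59% higher at that unadjusted p. Rbbp7, a histone-binding subunit of NuRD read by a probe set of the class open to cross-hybridisation and already known as one of the most different genes of this table, averaged 4.23 ± 0.37 in DBAxFVB F1 (SD, n = 3) and 5.67 ± 0.23 in AKRxFVB F1 (SD, n = 2), a difference of -1.44 ± 0.28 (SE, limma adjusted p = 0.164). The corepressor Ctbp1 read 4.41, 4.53 and 4.06 in DBAxFVB F1 and 5.24 and 5.01 in AKRxFVB F1, a difference of -0.79 ± 0.24 (limma adjusted p = 0.321). The deacetylase Hdac2 differed by -0.48 ± 0.22, while the NuRD subunits Gatad2b and Chd4 differed by 0.01 and -0.01.

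Genes that act downstream of Foxp1 or beside it in mouse lymphocytes and monocytes gave 9 tested genes, 8 lower and 1 higher, with a median of -0.36 and 0 calls (2 lower and 0 higher at an unadjusted p below 0.05). The shares over all tested probe sets were again 43.2% lower, and 6.79% lower and 3.59% higher at that unadjusted p. Il7r, the interleukin-7 receptor chain of lymphocytes, read 4.98, 4.76 and 4.25 in DBAxFVB F1 and 5.17 and 5.66 in AKRxFVB F1, a difference of -0.75 ± 0.30 (SE, limma adjusted p = 0.444). Klf2, a factor of T cell quiescence, differed by -0.97 ± 0.38 (limma adjusted p = 0.437) with overlapping groups. AKRxFVB F1 array 1 was the high one for Klf2 and array 2 for Il7r, and the Klf2 difference was -0.46 without AKRxFVB F1 array 1 and -1.49 without array 2. Foxo1, which Foxp1 opposes at the Il7r gene in mouse T cells, differed by -0.07 ± 0.25, and Bcl6, a repressor of germinal centre B cells, by -0.36 ± 0.19. The Bcl6 difference was -0.62 without AKRxFVB F1 array 1 and -0.10 without array 2. The list median was also -0.10 without array 2. Rag1 and Rag2, the recombinase genes whose expression in B cell precursors needs Foxp1, differed by -0.40 ± 0.49 and 0.31 ± 0.22. Rag1 lay in the Y-linked range on DBAxFVB F1 arrays 2 and 3 (2.42 and 2.18) and AKRxFVB F1 array 1 (2.13). On AKRxFVB F1 array 2 it read 3.87. Of the other forkhead genes of blood cells, 9 of 10 were tested, 6 lower and 3 higher, with a median of -0.13, which was -0.0046 without DBAxFVB F1 array 3 and -0.02 without AKRxFVB F1 array 2, and 0 calls (0 at an unadjusted p below 0.05). The genes with the smallest p, none below 0.05, differed by 0.47 ± 0.27 for Foxk1, -0.33 ± 0.18 for Foxj2 and -0.23 ± 0.15 for Foxj3. Without DBAxFVB F1 array 3 the Foxk1 difference was 0.20.

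The genes next to Foxp1 along chromosome 6 were measured as well. On the side of start 1 these were Eif4e3, a cap-binding protein gene, the receptor gene Gpr27 and Prok2, which encodes a secreted prokineticin, and on the other side the melanocyte and mast cell factor Mitf, Frmd4b and the muscle actin nucleator Lmod3. Their 14 probe sets, 6 of them tested, had differences from -0.80 to 0.31, and 2 were lower and 1 higher with no overlap. Only 1 of those without overlap was tested, an Eif4e3 probe set that was lower. Of all tested probe sets, 12.6% were lower and 16.4% higher with no overlap. Eif4e3 differed by 0.24 ± 0.24 (SE) on its brighter probe set and by -0.24 ± 0.18 on the other. Leaving out DBAxFVB F1 array 3 made the first of these 0.13, and leaving out AKRxFVB F1 array 2 made it 0.05. Gpr27 differed by 0.19 ± 0.20, and the tested probe set of Prok2 by -0.18 ± 0.21, or -0.0073 without DBAxFVB F1 array 3. Mitf and Lmod3 had no tested probe set. The lowest value belonged to a Frmd4b probe set, -0.80 ± 0.66, whose groups overlapped. Leaving out AKRxFVB F1 array 1 made it -1.94, and leaving out array 2 made it 0.34. Limma called 0 of the 6 tested, with adjusted p from 0.674 to 0.935.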

How the data were processed

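Blood RNA was amplified in 2 cycles and labelled with biotin, per the labels' protocols. The authors deposited 1 value per probe set and array, taken as log2 expression from its range of 1.29 to 14.8. The base, the background correction and the normalization are not stated. MAS5 and RMA are named, per the submitters' processing notes, without saying which gave the values.

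Of 45101 probe sets, 64 controls were left out. The platform annotation gave 1 symbol to 34958, several to 932 and none to 9211. Probe sets with a mean at or above the median (2.51) were tested, 22519 in all, with limma 3.58.1 in R 4.3.3 (variance trend, a single term for the cross, two-sided, Benjamini-Hochberg adjustment), on 3 residual degrees of freedom. An exact permutation test of 3 arrays against 2 has 0.1 as its smallest p. The limma step was tested on simulated data. Differences are DBAxFVB F1 minus AKRxFVB F1.

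The gene, the 14 lists (151 entries, 130 measured) and the tests were chosen with earlier results of these data known. Where a list gene had several tested probe sets, the brightest on average stands for it. The rule for naming took all Foxp1 and FOXP family probe sets, the 5 nearest genes to each of 2 Foxp1 probe sets and 3 neighbours a side. It also took up to 3 genes per list with the smallest p, but not all of those are named in the text. Genes named outside this rule (Alas2, Ppbp, Gatad2b, Chd4, Foxo1, Rag1, Rag2, Cr2 and Zap70) were chosen after their values were seen. Promoters are from RefSeq. Alternatives were other normalizations, filters, variance models, array weights, a replicate block and each array left out.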

Additional observations from a re-analysis of the deposited data

How the results depend on the processing

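Limma called 0 probe sets at an adjusted p below 0.05 in every alternative run, and 0 at an adjusted p below 0.1 in the deposited values. The smallest adjusted p ranged from 0.0639 with array weights to 0.57 without DBAxFVB F1 array 2. At an unadjusted p below 0.05 there were 2337, against 3880 without a filter, 1299 with the filter at the 75th percentile and 1271 without AKRxFVB F1 array 1. Its lower side was 65.4%, against 77.0% after median centring, 78.9% after cyclic loess normalization and 75.5% with the 75th percentile filter, and 75.6% without AKRxFVB F1 array 1. It was 59.3% without DBAxFVB F1 array 1, 61.4% without DBAxFVB F1 array 2 and 59.7% with no filter. The median Foxp1 difference of -0.63 ranged from -0.86 to -0.46 with 1 array left out and from -0.68 to -0.62 under the other normalizations and array weights. Foxp1 probe sets lower with no overlap numbered 6 (12.6% of tested probe sets), against 4 after quantile (12.3%) or cyclic loess normalization (14.8%), where 1435221_at and 1455242_at overlapped, and 7 without DBAxFVB F1 array 3 (17.7%). No Foxp1 difference changed sign in 80 recomputations. For the 6 lower and 1 higher probe sets without overlap, leaving out or reweighting arrays could not have changed it. Of the 80, 9 moved by more than the spread between arrays, as did 41 of 580 among 58 other probe sets recomputed alike. Signs did change among those others, as in the Frmd4b probe set described above. The gap between 1435221_at and 1435222_at was -1.37 (1435222_at minus 1435221_at), -0.95 without AKRxFVB F1 array 2 and -1.79 without array 1. The rank of Foxp1 by range, 1, lay between 1 and 3 with an array left out. The alternatives for this gap, this rank and the gene list medians were chosen after seeing the data. With a lone AKRxFVB F1 array, it is assumed to vary like the other cross. The replicate numbers were not taken as pairs. Deviations of same-numbered arrays from their group means correlated at -0.26 and 0.17. The 2 AKRxFVB F1 arrays deviate by equal and opposite amounts, so these values are not independent and cannot decide whether same-numbered arrays are paired. With the replicate number as a block, limma called 0 probe sets and the Foxp1 median was -0.72. Only DBAxFVB F1 array 3 has the replicate number 3. The differences of this run therefore equal those without that array, and it is no separate check of them. The number of arrays and low signals near the Y-linked range limit the dim probe sets.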
